A study of Homo sapiens with 21 samples.

Results

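The libraries described here are labeled as PC-9 cells, a human lung adenocarcinoma line that carries an EGFR exon 19 deletion, kept in the vehicle DMSO for 72 h. They are the 3 libraries of the group PC9 EGFR-low DMSO and the 3 of the group PC9 EGFR-high DMSO, taken by those names from the table of the vorinostat experiment: 6 of 21 libraries in all. By the methods of the study, EGFR-low and EGFR-high were made from PC-9 by staining surface EGFR and sorting in 6 sequential rounds, each time keeping the 5 to 10% of cells with the lowest or the highest signal. By that account both populations share a parent line, are sorted pools and not single clones, and stand for 1 cell line, which was not tested here. Cells were seeded, given DMSO 24 h later, and harvested after 72 h in DMSO; the same table holds both populations in 1 uM vorinostat (SAHA), an inhibitor of histone deacetylases, for 72 h, 3 libraries each. A separate table holds untreated EGFR-low, EGFR-high and parental cells, 3 libraries each, harvested 24 h after seeding. The genotype labels give the deletion as starting at E746 and ending at A759, A760 and A761 in the EGFR-high DMSO replicates and at A765, A766 and A767 in the EGFR-low DMSO replicates. Those end residues count up by 1 from library to library across the series, so no allele was read from them. The study calls its repeats independent experiments, but nothing in the labels says that replicates are separate cultures, so each p below measures the spread between libraries.

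RNA was enriched for polyadenylated transcripts, and the deposited values are taken as FPKM (fragment counts scaled to transcript length and to the size of the library). The sequencing depth is unknown, and a value of 0 is given as "listed at 0". The summed FPKM of the 6 libraries lay between 511011 and 580201. Fold changes are differences of mean log2(FPKM + 1), EGFR-low minus EGFR-high, which understates the ratio for genes near 1 FPKM, and a gene is called at a Benjamini-Hochberg adjusted p under 0.05 in limma. In bulk RNA, fewer cells of a type and less RNA per cell cannot be told apart.

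EGFR is a receptor tyrosine kinase of the ERBB family that binds ligands such as EGF, TGFA, AREG and HBEGF and signals through the RAS-ERK and PI3K-AKT pathways. Exon 19 deletions keep the kinase active without ligand and make lung adenocarcinomas sensitive to EGFR kinase inhibitors. ERK signaling induces its own inhibitors, the DUSP phosphatases and SPRY proteins, so their RNA is often read beside that of the receptor.

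Not all libraries of a group were alike, and 2 of the 6 stood between the groups. Across tested genes, EGFR-low replicates 2 and 3 correlated with EGFR-high replicates 1 and 2 at 0.794 to 0.801, on log2 values. EGFR-low replicate 1 correlated with its own replicates 2 and 3 at 0.957 to 0.960 and with EGFR-high replicates 1 and 2 at 0.884 to 0.885, and with EGFR-high replicate 3 at 0.953. EGFR-high replicate 3 correlated with its own replicates 1 and 2 at 0.966 to 0.971 and with EGFR-low replicates 2 and 3 at 0.882 to 0.889. These correlations are across genes, which are not independent replicates. On the first principal component of the 12 libraries, which held 82.5% of the variance, EGFR-low replicates 2 and 3 lay at -65.71 and -66.54 and EGFR-high replicates 1 and 2 at 65.63 and 66.7. EGFR-low replicate 1 lay at -25.6 and EGFR-high replicate 3 at 26.34, so both fell between the other libraries of their labels; they are called the intermediate pair from here on.

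The intermediate pair held part of the level of most genes that were on in only 1 group. A set of 48 genes had at least 10 FPKM in EGFR-low replicates 2 and 3 and under 0.1 in EGFR-high replicates 1 and 2. EGFR-low replicate 1 held a median of 70.2% of their level (quartiles 61.1 and 76%), and EGFR-high replicate 3 held 24.9% (quartiles 21.7 and 26.4%). Single genes ran from 31.2 to 147% in the former and from 11.6 to 38.1% in the latter. The reverse set of 31 genes, on in EGFR-high replicates 1 and 2, stood at a median of 21.6% (quartiles 19.1 and 23.3%) in EGFR-low replicate 1 and at 71.1% (quartiles 65 and 78.2%) in EGFR-high replicate 3. Its single genes ran from 14.2 to 33.2% and from 49 to 130%. Among the vorinostat libraries, EGFR-high replicate 1 held 2.2% of the first set, and the other EGFR-high replicates held 0.112 and 0.109%. Intermediate RNA levels in every cell, and RNA of both kinds in 1 library, cannot be told apart here.

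The intermediate pair also shared RNA of genes that the other 4 DMSO libraries nearly lacked, a pattern chosen after the values were seen. The genes named below include leukocyte genes, but how many of those found are leukocyte genes was not counted or tested. There were 24 genes with at least 0.5 FPKM in EGFR-low replicate 1 and under 0.1 in EGFR-low replicates 2 and 3 and EGFR-high replicates 1 and 2. Of these, 23 had at least 0.1 FPKM in EGFR-high replicate 3, and 19 were under 0.1 in all 6 vorinostat libraries. CD52, a lymphocyte surface protein, was at 3.45 FPKM in EGFR-low replicate 1 and 1.28 in EGFR-high replicate 3. MS4A1, the B cell protein CD20, was at 1.18 and 0.329 FPKM in the same libraries, and CD3E, a chain of the T cell receptor complex, at 0.937 and 0.290. PTPRC, the leukocyte protein CD45, stood at 0.805, 0.0335 and 0.0438 FPKM in EGFR-low and 0.0495, 0 and 0.200 FPKM in EGFR-high. LYZ, the lysozyme of myeloid cells and of some epithelia, stood at 7.28, 0.0284 and 0.0597 FPKM in EGFR-low and 0.385, 0.167 and 2.76 FPKM in EGFR-high, so it was outside the search. In both genes EGFR-low replicate 1 was the highest library and EGFR-high replicate 3 the next. The opposite search, at least 0.5 FPKM in EGFR-high replicate 3 and under 0.1 in the same 4 libraries, found 2 genes. The part of this RNA in the differences between the groups was not tested.

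**Figure D1:**
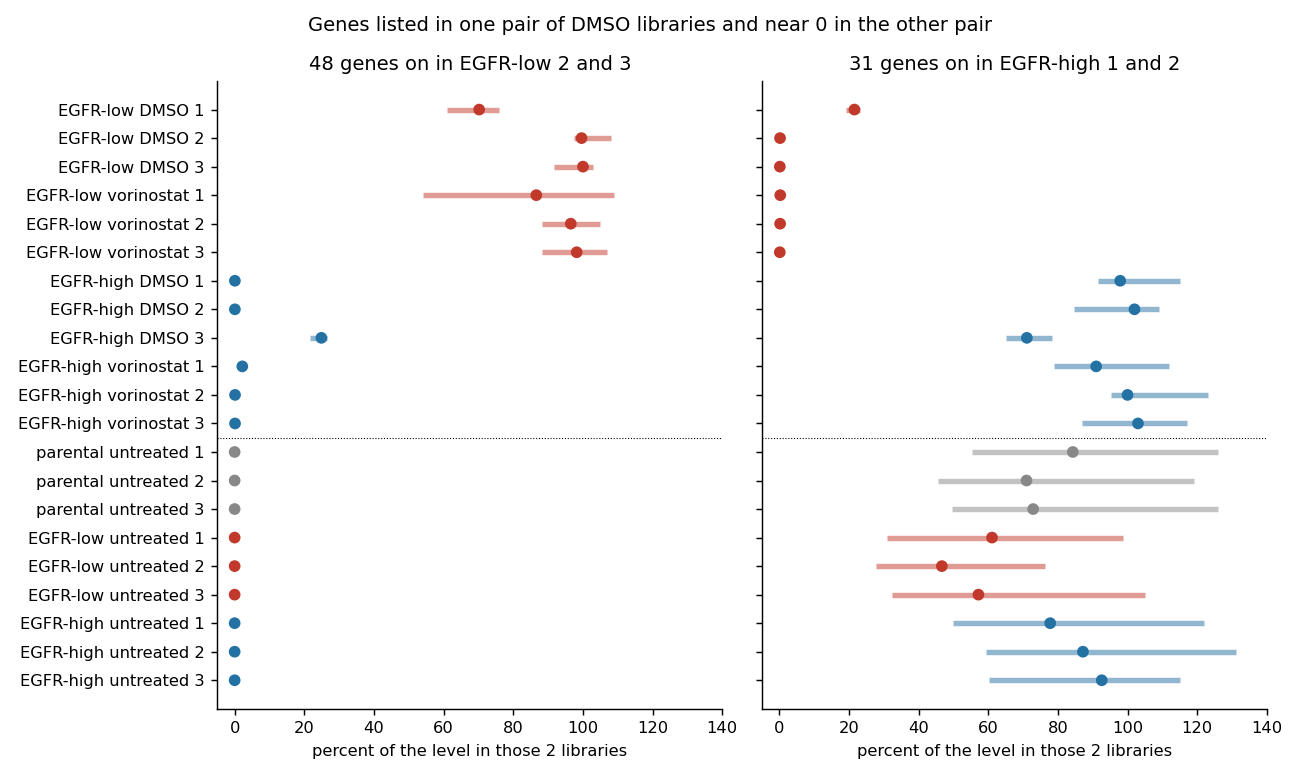
Each point is the median, and each bar the quartiles, of a gene set in 1 library, as a percent of its mean level in the 2 libraries that define the set (horizontal axis). The left panel shows 48 genes on in EGFR-low DMSO replicates 2 and 3, where EGFR-low replicate 1 sits at 70.2% and EGFR-high replicate 3 at 24.9%; the right panel shows 31 genes on in EGFR-high DMSO replicates 1 and 2, and the libraries under the dotted line are from the untreated experiment.

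The EGFR-low DMSO libraries also differed from every untreated PC-9 library, and the EGFR-high DMSO libraries did much less. Of 8726 genes with at least 5 FPKM in EGFR-low DMSO replicates 2 and 3, 191 were under 1 FPKM in all 9 untreated libraries, parental cells included. Of 8175 genes with at least 5 FPKM in EGFR-high DMSO replicates 1 and 2, 1 was. In the other direction, 6353 genes had at least 5 FPKM in all 9 untreated libraries, and 124 of them were under 1 FPKM in EGFR-low DMSO replicates 2 and 3, against 0 in EGFR-high DMSO replicates 1 and 2. All 48 genes of the set that marked EGFR-low replicates 2 and 3 were under 1 FPKM in each of the 9 untreated libraries, and the median of the set was 0 in each. In these counts a low level and a level that was not estimated cannot be told apart. Across genes, EGFR-low DMSO replicates 2 and 3 correlated with untreated EGFR-low libraries at 0.758 to 0.786, and EGFR-high DMSO replicates 1 and 2 with those same untreated EGFR-low libraries at 0.907 to 0.944. Untreated libraries of the 3 populations correlated with each other at 0.907 to 0.991. The EGFR-high DMSO cells had the same treatment, time and experiment as the EGFR-low DMSO cells. Their replicates 1 and 2 correlated with untreated EGFR-high libraries at 0.931 to 0.966. What sets the EGFR-low DMSO cells apart from untreated EGFR-low cells was not tested. Treatment, time and experiment differ together between those 2 groups and cannot be told apart. The study reports a check of its cell lines by fingerprinting against cross contamination. The label PC-9 was not tested here. Each result below is therefore a difference between the deposited groups. Most are given with all 6 libraries and without the intermediate pair; where 2 values stand in brackets alone, they are the log2 fold changes with all 6 libraries and then without the pair.

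Some values of exactly 0 need care. MT-ATP8, MT-ATP6 and MT-CO3, mitochondrial genes that are among the most abundant in the other 5 libraries, were listed at 0 in EGFR-low replicate 1. MT-CO3, a subunit of cytochrome c oxidase, stood at 0, 3385 and 7903 FPKM in EGFR-low and 6225, 2242 and 3276 FPKM in EGFR-high. UBE2M, the conjugating enzyme of the NEDD8 pathway, stood at 74.3, 107 and 113 FPKM in EGFR-low and 0.116, 0.105 and 27.1 FPKM in EGFR-high, and at 0, 0 and 0 FPKM in untreated EGFR-low cells. For such genes a true level near 0 and a level that was not estimated cannot be told apart, so UBE2M, although called (log2 fold change 4.91, SE 0.974, adjusted p = 0.0016), is not read further. The same limit holds for the rises of MID1IP1, MT1E, FGFR2, CCL2, CT45A2, CT45A4 and XAGE1A to XAGE1E, given below. Each of these genes was listed at 0 in every untreated library. The mitochondrially encoded share of all FPKM, 7.8, 8.3 and 16.7% in EGFR-low and 18.6, 8.96 and 10.5% in EGFR-high, overlapped between the groups. The 7.8% of EGFR-low replicate 1 lacks MT-ATP8, MT-ATP6 and MT-CO3, so it is not directly comparable with the other shares.

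More than 1 in 2 tested genes differed between the groups. Of 12236 genes tested, 6334 (51.8%) were called. EGFR-low cells had the higher level in 3807 (31.1%) and the lower in 2527 (20.7%). The 3 libraries of one group lay wholly above the 3 of the other for 8485 genes (69.3%), and for 3764 of the genes called higher and 2507 of those called lower. Without the intermediate pair, 6058 genes (49.5%) were called, 3701 (30.2%) higher and 2357 (19.3%) lower. Of the calls, 5812 were made with and without the pair, 0 of them in opposite directions, while 522 were made only with all 6 libraries and 246 only without the pair. Changes of at least 2 on the log2 scale numbered 290 higher and 324 lower, or 501 and 466 without the pair. The median log2 fold change over all tested genes was 0.12, and 0.15 without the pair. Scaling by median-of-ratios moved that median by 0.12 to 0.0069, and the calls to 3207 higher and 3190 lower. The share of calls that were higher in EGFR-low was 60.1% as deposited, 50.1% after that scaling and 52.8% after quantile normalization, so the excess of genes called higher depends on the scaling. A list's median below should be read against 0.12, and its counts against 31.1% higher and 20.7% lower. Counts after median-of-ratios scaling should be read against 3207 higher and 3190 lower of 12236.

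**Figure D2:**
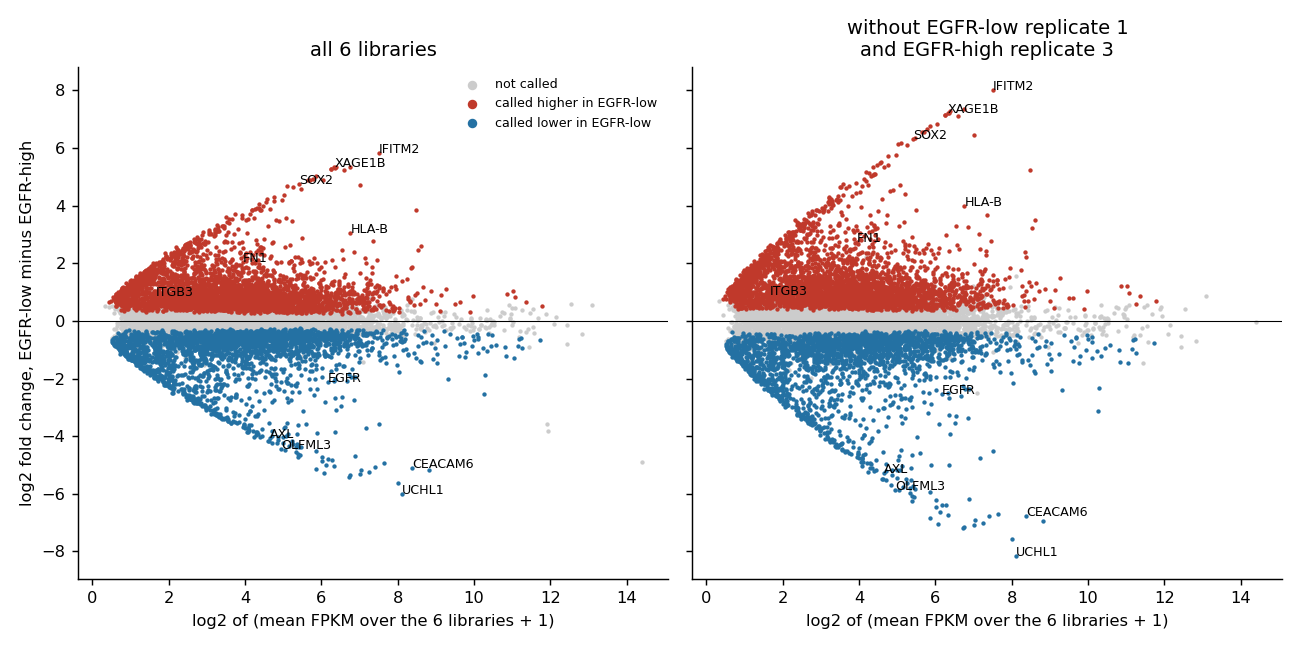
Each point is a tested gene: the log2 fold change, EGFR-low minus EGFR-high (vertical axis), against the log2 of its mean FPKM plus 1 over the 6 libraries (horizontal axis), red where called higher, blue where called lower and grey where not called. The left panel uses all 6 DMSO libraries and the right panel leaves out EGFR-low replicate 1 and EGFR-high replicate 3; IFITM2 goes from 5.81 to 8.01 and UCHL1 from -6.01 to -8.14.

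EGFR itself followed the sort. Its RNA stood at 43.3, 17.7 and 19.3 FPKM in EGFR-low replicates 1 to 3 and at 83.3, 152 and 109 FPKM in EGFR-high replicates 1 to 3. The 3 EGFR-low libraries were all below the 3 EGFR-high libraries, with the intermediate EGFR-low replicate 1 the highest of its group (log2 fold change -2.13, SE 0.349, adjusted p = 0.000569, and -2.54 without the pair). Of 9 tested ERBB receptors and ligands, 3 were called higher and 3 lower (median log2 fold change 0.38 with all 6 libraries and 0.48 without the intermediate pair). HBEGF, a membrane-bound ligand of EGFR, stood at 5.37, 1.37 and 1.61 FPKM in EGFR-low and 18.7, 33.3 and 13.2 FPKM in EGFR-high. All EGFR-low values lay below all EGFR-high values, and the log2 fold change was -2.64 (-3.39 without the pair). AREG, amphiregulin, went the other way, at 20.6, 14.0 and 14.9 FPKM in EGFR-low and 2.55, 2.38 and 6.81 FPKM in EGFR-high, with no overlap (log2 fold change 1.93, adjusted p = 0.0274, and 2.16 without the pair, adjusted p = 0.0464). The AREG call was lost without EGFR-low replicate 1 (adjusted p = 0.0691), EGFR-low replicate 2 (adjusted p = 0.0539), EGFR-low replicate 3 (adjusted p = 0.0588), EGFR-high replicate 1 (adjusted p = 0.086) or EGFR-high replicate 2 (adjusted p = 0.0904). NRG1, a ligand of ERBB3 and ERBB4, was higher by 1.01 (1.49), a call lost without EGFR-low replicate 3 (adjusted p = 0.0515), EGFR-high replicate 1 (adjusted p = 0.0525) or EGFR-high replicate 2 (adjusted p = 0.0502).

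Among 19 tested genes that ERK signaling induces, 5 were called higher and 9 lower, with a median log2 fold change -0.81 with all 6 libraries and -1.04 without the intermediate pair. After median-of-ratios scaling the counts were 2 higher and 10 lower, and without the pair 3 and 10. DUSP6, a phosphatase that removes the activating phosphates from ERK, stood at 9.53, 2.25 and 3.76 FPKM in EGFR-low and 19.0, 24.2 and 20.9 FPKM in EGFR-high. Its groups did not overlap (log2 fold change -2.03, SE 0.382, adjusted p = 0.0012, and -2.51 without the pair). DUSP4, a nuclear phosphatase of the same family, fell by 2.26 on the log2 scale (-2.93 without the pair), and SPRY4, an inhibitor of RAS activation, by 2.18 (-2.74). EGR1, an immediate early transcription factor, was the exception among the 4 most changed members, at 18.0, 34.0 and 47.8 FPKM in EGFR-low and 5.74, 1.24 and 7.13 FPKM in EGFR-high. The EGFR-low libraries were all above the EGFR-high libraries for EGR1 (log2 fold change 2.68, SE 0.639, adjusted p = 0.00462, and 3.41 without the pair). The list thus held both directions, with the DUSP and SPRY members named here low and EGR1 high in EGFR-low cells.

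**Figure D3:**
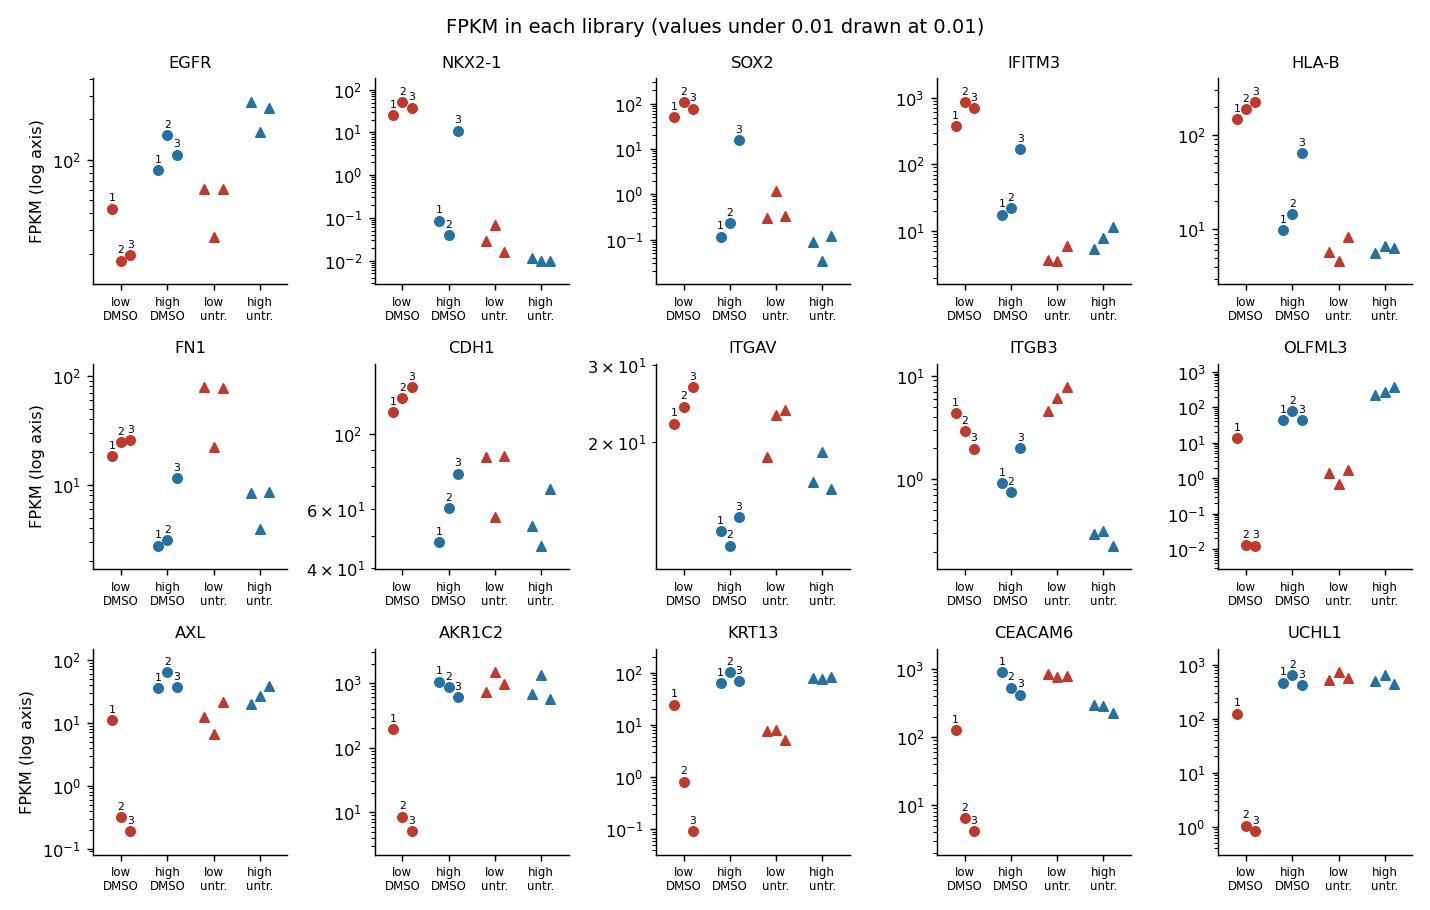
FPKM of 15 genes in each library on log axes, red for EGFR-low and blue for EGFR-high, circles for DMSO with the replicate number and triangles for untreated cells; values under 0.01 are drawn at 0.01. For NKX2-1, IFITM3 and AKR1C2, among others, EGFR-low DMSO replicate 1 or EGFR-high DMSO replicate 3 lies between the other DMSO libraries, and EGFR-low DMSO replicates 2 and 3 lie outside the range of the untreated libraries.

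Transcription factors of the lung and foregut lineage moved in both directions, and some of them were on in EGFR-low DMSO cells and nearly off in EGFR-high DMSO replicates 1 and 2. NKX2-1, which directs the identity of distal lung epithelium and serves as a marker of lung adenocarcinoma, stood at 25.6, 51.1 and 37.9 FPKM in EGFR-low and 0.0859, 0.0397 and 11.1 FPKM in EGFR-high. The EGFR-low libraries were all higher, and the only EGFR-high library above 0.1 FPKM was the intermediate replicate 3 (log2 fold change 3.98, SE 0.745, adjusted p = 0.00114, and 5.41 without the pair). SOX2, a factor of foregut and airway progenitors, stood at 50.2, 107 and 77.6 FPKM in EGFR-low and 0.116, 0.235 and 15.6 FPKM in EGFR-high and showed the same order (log2 fold changes 4.74 and 6.30). FOXA2, a forkhead factor of endoderm, was at 32.4, 23.2 and 20.8 FPKM in EGFR-low and 0.0658, 0.0768 and 8.40 FPKM in EGFR-high (3.56 and 4.42). FOXA1, its paralog, went the other way, at 5.23, 1.27 and 1.47 FPKM in EGFR-low and 28.1, 17.1 and 14.8 FPKM in EGFR-high (-2.63 and -3.28); it falls outside the rule for named genes and was chosen after its values were seen. In untreated cells NKX2-1 stood at 0.0291, 0.0690 and 0.0161 FPKM in EGFR-low and 0.0116, 0 and 0 FPKM in EGFR-high, so the 2 experiments differ in it. Of 20 tested lung lineage genes, 9 were called higher and 6 lower (median log2 fold change 0.44 with all 6 libraries and 0.55 without the intermediate pair). Of genes of the differentiated lung, SCGB1A1, SCGB3A1, SCGB3A2 and PDPN were listed at 0 in all 6 libraries, and SFTPA1, SFTPA2, SFTPB, SFTPC, SFTPD, AQP5 and SLC34A2 were under 1 FPKM in all 6. ABCA3, HOPX, LAMP3 and CAV1 were above 1 FPKM in all 6.

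Epithelial genes, those of junctions and epithelial transcription, moved in both directions. Of 34 tested, 14 were called higher and 9 lower (median log2 fold change 0.30 with all 6 libraries and 0.36 without the intermediate pair). CDH1, the adhesion protein E-cadherin, stood at 116, 128 and 138 FPKM in EGFR-low and 48.0, 60.5 and 76.4 FPKM in EGFR-high. Every EGFR-low library was above every EGFR-high library (log2 fold change 1.06, SE 0.165, adjusted p = 0.000462, and 1.29 without the pair). Among claudins of tight junctions, CLDN3 rose by 1.70 (2.02) and CLDN1 fell by 3.61 (log2 fold change -4.66 without the pair). EHF, an epithelial factor of the ETS family, stood at 15.9, 0.956 and 1.09 FPKM in EGFR-low and 59.6, 73.0 and 53.4 FPKM in EGFR-high, so that only the intermediate library of the EGFR-low group was above 2 FPKM (-3.93 and -5.05). RAB25, a small GTPase of apical recycling, was also lower (-2.47 and -2.98). Of 10 tested markers of epithelial lung tumor cells, 4 were called higher and 3 lower (median log2 fold change 0.23 with all 6 libraries and 0.43 without the intermediate pair). NAPSA, an aspartic protease of alveolar cells, at 0.524, 2.76 and 3.41 FPKM in EGFR-low and 0.158, 0.165 and 0.619 FPKM in EGFR-high, was higher with overlapping groups (log2 fold change 1.18, SE 0.398, adjusted p = 0.0272, and 1.81 without the pair, adjusted p = 0.0019). The NAPSA call was lost without EGFR-low replicate 2 (adjusted p = 0.0983), EGFR-low replicate 3 (adjusted p = 0.116), EGFR-high replicate 1 (adjusted p = 0.0807) or EGFR-high replicate 2 (adjusted p = 0.0805).

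Keratins, the intermediate filament proteins of epithelia, were mostly lower in EGFR-low cells: 1 of 14 tested was called higher and 9 lower (median log2 fold change -1.28 with all 6 libraries and -1.54 without the intermediate pair). KRT8, with KRT18 the filament pair of simple epithelia, stood at 348, 274 and 216 FPKM in EGFR-low and 926, 729 and 639.5 FPKM in EGFR-high. The groups did not overlap (log2 fold change -1.46, SE 0.243, adjusted p = 0.000613, and -1.75 without the pair). KRT19, another keratin of simple epithelia, fell by 1.31 (-1.50). The squamous keratin KRT13 stood at 24.7, 0.827 and 0.0940 FPKM in EGFR-low and 63.4, 102 and 69.9 FPKM in EGFR-high, on in EGFR-high cells and near 0 in EGFR-low replicates 2 and 3 (-4.39 and -5.85). KRT5 of basal cells (-2.98 and -3.78), KRT16 (-1.91 and -2.29) and KRT23 (-3.49 and -4.43) were lower as well. Of 8 tested gastric and mucinous genes, 0 were called higher and 7 lower (median log2 fold change -1.73 with all 6 libraries and -2.13 without the intermediate pair), with 5 called lower without the pair. CEACAM6, an adhesion glycoprotein of glandular epithelia, stood at 125, 6.56 and 4.22 FPKM in EGFR-low and 889.9, 534 and 422 FPKM in EGFR-high. EGFR-low replicates 2 and 3 were far below the intermediate replicate 1, and all 3 were below the EGFR-high libraries (log2 fold change -5.10, SE 0.880, adjusted p = 0.000739, and -6.78 without the pair). CEACAM5 (-2.48 and -3.04), the surface protein PSCA (-3.73 and -4.81) and the goblet cell factor SPDEF (-1.87 and -2.37) were lower too.

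Interferon-stimulated genes were higher in EGFR-low DMSO cells almost as a block: 34 of 38 tested were called higher and 0 lower, against 31.1% and 20.7% of all tested genes. The list had the median log2 fold change 1.70 with all 6 libraries and 2.08 without the intermediate pair, and the counts were 34 and 0 without it and unchanged by median-of-ratios scaling. IFITM3, a membrane protein that blocks virus entry, stood at 370.3, 855 and 689.5 FPKM in EGFR-low and 17.6, 21.8 and 168 FPKM in EGFR-high. The lowest EGFR-low library was the intermediate replicate 1 and the highest EGFR-high library the intermediate replicate 3, and the groups did not overlap (log2 fold change 3.86, SE 0.731, adjusted p = 0.00124, and 5.22 without the pair). Its paralogs IFITM1, at 149, 245 and 183 FPKM in EGFR-low and 0.292, 0.311 and 58.9 FPKM in EGFR-high (5.34 and 7.35), and IFITM2, at 228, 442 and 334 FPKM in EGFR-low and 0.530, 0.454 and 85.3 FPKM in EGFR-high (5.81 and 8.01), showed the same order. The 3 genes are near copies, so how reads were shared among them is uncertain. IFI44, another gene that interferon induces, stood at 13.0, 15.5 and 14.4 FPKM in EGFR-low and 0.101, 0.172 and 5.04 FPKM in EGFR-high (2.94 and 3.81). Leaving out EGFR-high replicate 3 alone moved IFITM2 from 5.81 to 7.76, the farthest of the 6 leave-one-out values.

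The starts of these genes are printed because so many members moved together. A search for GAAANNGAA (TTCNNTTTC on the other strand), the core letters of the element that interferon-activated factors bind, covered windows of 300 bases, from 250 before to 50 after each start in RefSeq, build GRCh38.p14. The motifs were chosen after the values were seen. A form of this one with 1 more A at the end was searched first. A limit on the length of typed sequence led to the shorter form, and the counts of the longer one are not given here. Of the 38 tested members, 30 had a window, and 21 of these (70%) held the letters on either strand; of all 27305 windows, 2264 (8.29%) did. Among called members with a window, 19 of 27 held them. The window of IFITM1 is chr11:313790-314089 on the plus strand, that of IFITM3 is chr11:320811-321110 on the minus strand and that of IFI44 is chr1:78649539-78649838 on the plus strand. Each is written 5′ to 3′ with the matched letters in capitals, and a match is a description of the sequence, not a site shown to be in use.
IFITM1: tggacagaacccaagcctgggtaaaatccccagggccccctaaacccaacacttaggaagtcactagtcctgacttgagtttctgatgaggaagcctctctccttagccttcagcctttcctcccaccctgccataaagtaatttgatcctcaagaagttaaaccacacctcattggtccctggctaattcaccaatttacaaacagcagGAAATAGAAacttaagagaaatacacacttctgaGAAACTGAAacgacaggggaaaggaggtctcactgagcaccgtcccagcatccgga
IFITM3: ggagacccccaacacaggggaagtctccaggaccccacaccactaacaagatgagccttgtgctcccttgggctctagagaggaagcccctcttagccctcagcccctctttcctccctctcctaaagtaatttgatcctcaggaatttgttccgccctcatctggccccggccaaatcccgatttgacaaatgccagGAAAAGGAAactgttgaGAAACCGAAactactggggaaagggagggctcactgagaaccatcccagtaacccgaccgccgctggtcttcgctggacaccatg
IFI44: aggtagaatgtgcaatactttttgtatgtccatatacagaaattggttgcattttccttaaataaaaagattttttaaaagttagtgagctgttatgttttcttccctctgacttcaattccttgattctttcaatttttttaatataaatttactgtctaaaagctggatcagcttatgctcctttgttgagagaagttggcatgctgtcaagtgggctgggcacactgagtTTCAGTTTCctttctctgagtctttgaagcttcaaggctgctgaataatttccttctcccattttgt

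Of 19 tested genes of MHC class I, which presents peptides to T cells, 10 were called higher, 2 lower and 7 neither (median log2 fold change 0.83 with all 6 libraries and 1.04 without the intermediate pair). HLA-B, a class I heavy chain, stood at 146, 188 and 222 FPKM in EGFR-low and 9.85, 14.6 and 64.2 FPKM in EGFR-high. EGFR-high replicate 3 was the highest of its group and still below the lowest EGFR-low library (log2 fold change 3.05, SE 0.510, adjusted p = 0.000627, and 3.98 without the pair). B2M, the light chain of class I, was at 401, 454 and 456 FPKM in EGFR-low and 119, 152 and 226 FPKM in EGFR-high (1.44 and 1.75), a gene chosen after its values were seen. PSMB9, an immunoproteasome subunit, rose by 2.37 (3.07), TAP1, the peptide transporter, by 1.58 (1.93) and HLA-F by 1.60 (2.15). In untreated cells HLA-B stood at 5.77, 4.66 and 8.20 FPKM in EGFR-low and 5.61, 6.66 and 6.27 FPKM in EGFR-high, below every DMSO library.

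Targets of NRF2, the factor that induces detoxification and glutathione genes, were mostly lower in EGFR-low DMSO cells: 1 of 27 tested was called higher and 18 lower (median log2 fold change -1.22 with all 6 libraries and -1.51 without the intermediate pair). AKR1C2, an aldo-keto reductase, stood at 192, 8.56 and 5.18 FPKM in EGFR-low and 1050.2, 857 and 609 FPKM in EGFR-high. EGFR-low replicates 2 and 3 were the lowest, replicate 1 came next, and the EGFR-high libraries were all higher (log2 fold change -5.19, SE 1.01, adjusted p = 0.00146, and -6.95 without the pair). Its near copies AKR1C3 (-5.18 and -6.90) and AKR1C1 (-4.28 and -5.53) fell too, and how reads were shared among the 3 is uncertain. ALDH3A1, an aldehyde dehydrogenase, at 26.2, 3.14 and 2.07 FPKM in EGFR-low and 91.3, 139.7 and 86.2 FPKM in EGFR-high, was lower in all 3 EGFR-low libraries (log2 fold change -3.89, adjusted p = 0.014, and -5.0 without the pair, adjusted p = 0.00978). The ALDH3A1 call was lost without EGFR-low replicate 2 (adjusted p = 0.0529) or EGFR-low replicate 3 (adjusted p = 0.0594). GPX2, a glutathione peroxidase, at 8.61, 1.65 and 0.924 FPKM in EGFR-low and 55.2, 48.7 and 26.9 FPKM in EGFR-high (-3.54 and -4.55), and GCLM, a subunit of the enzyme that starts glutathione synthesis, at 16.7, 8.45 and 5.80 FPKM in EGFR-low and 39.2, 57.0 and 35.3 FPKM in EGFR-high (-2.07 and -2.59), had groups that did not overlap. HMOX1, heme oxygenase, was the member called higher, at 42.1, 127 and 60.2 FPKM in EGFR-low and 6.49, 4.14 and 21.9 FPKM in EGFR-high (2.86 and 3.83). GPX2, GCLM and HMOX1 fall outside the rule for named genes and were chosen after their values were seen.

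The same search with TGACNNNGC (GCNNNGTCA on the other strand), the core letters of the antioxidant response element, found less. Neither this motif nor the interferon motif contains the other. Of the 27 tested NRF2 targets, 17 had a window and 5 of these (29.4%) held the letters, against 3702 of 27305 windows (13.6%); among called members with a window, 4 of 13 did. The starts of GPX2 (chr14:64942696-64942995, minus strand) and GCLM (chr1:93909381-93909680, minus strand) are shown as examples of members that fell, in the same build from RefSeq and with the matched letters in capitals. No match in a window says only that these letters are not in those 300 bases.
GPX2: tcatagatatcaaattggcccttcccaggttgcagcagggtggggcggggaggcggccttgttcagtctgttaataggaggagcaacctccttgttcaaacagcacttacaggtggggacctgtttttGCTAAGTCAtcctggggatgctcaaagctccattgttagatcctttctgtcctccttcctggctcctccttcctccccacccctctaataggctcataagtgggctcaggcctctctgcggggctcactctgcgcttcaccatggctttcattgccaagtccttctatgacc
GCLM: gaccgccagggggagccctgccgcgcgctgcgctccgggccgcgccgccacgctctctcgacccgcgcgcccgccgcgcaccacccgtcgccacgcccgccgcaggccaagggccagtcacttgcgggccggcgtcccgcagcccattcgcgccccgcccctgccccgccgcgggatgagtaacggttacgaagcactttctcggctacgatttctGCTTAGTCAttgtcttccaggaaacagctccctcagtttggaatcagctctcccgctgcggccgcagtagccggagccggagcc

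Integrins, the receptors that hold cells to matrix, were lower more often than higher: 2 of 13 tested were called higher and 5 lower (median log2 fold change -0.38 with all 6 libraries and -0.19 without the intermediate pair). ITGAV, the alpha chain shared by receptors for fibronectin and latent TGFb, stood at 22.1, 24.1 and 26.7 FPKM in EGFR-low and 12.6, 11.6 and 13.5 FPKM in EGFR-high and was higher in all 3 EGFR-low libraries (log2 fold change 0.89, SE 0.145, adjusted p = 0.000548, and 1.01 without the pair). ITGB3, a beta chain that pairs with it, stood at 4.34, 2.91 and 1.98 FPKM in EGFR-low and 0.925, 0.748 and 2.01 FPKM in EGFR-high. EGFR-low replicate 3 was just below EGFR-high replicate 3, and the difference was not called (log2 fold change 0.87, SE 0.486, adjusted p = 0.153, and 0.90 without the pair, adjusted p = 0.236). Of the laminin receptor chains, ITGA6 and ITGB4 went down, both with all EGFR-low libraries below all EGFR-high libraries. ITGA6 stood at 77.5, 24.4 and 24.3 FPKM in EGFR-low and 118, 199 and 167 FPKM in EGFR-high (log2 fold changes -2.10 and -2.60). ITGB4 stood at 23.4, 7.21 and 9.0 FPKM in EGFR-low and 26.7, 74.1 and 60.0 FPKM in EGFR-high (-1.99 and -2.33). ITGA2, a collagen receptor chain (-1.77 and -2.14), and ITGB5 (-1.23 and -1.57) were lower as well. The laminin receptor chain ITGA3 overlapped, at 116, 155 and 176 FPKM in EGFR-low and 108, 249 and 188 FPKM in EGFR-high. ITGA7, another such chain, was higher in all EGFR-low libraries, at 0.277, 0.904 and 0.945 FPKM against 0.228, 0.0598 and 0.219 FPKM in EGFR-high. It was under 1 FPKM in all 6 libraries, so this order is uncertain. ITGA3 and ITGA7 fall outside the rule for named genes and were chosen after their values were seen.

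Of 37 tested TGFb pathway genes, 12 were called higher and 12 lower (median log2 fold change -0.085 with all 6 libraries and -0.11 without the intermediate pair). In all 64.9% were called, against 51.8% of all tested genes, of which 31.1% were higher and 20.7% lower. Of the ligands, TGFB1 stood at 6.15, 2.74 and 5.72 FPKM in EGFR-low and 10.8, 13.2 and 11.2 FPKM in EGFR-high and was lower in all 3 EGFR-low libraries (log2 fold change -1.17, adjusted p = 0.0118, and -1.37 without the pair). The TGFB1 call was lost without EGFR-low replicate 2 (adjusted p = 0.0565). TGFB3 stood at 1.35, 1.91 and 1.93 FPKM in EGFR-low and 0.464, 0.233 and 0.716 FPKM in EGFR-high, low in both groups and higher in EGFR-low (log2 fold change 0.90, SE 0.156, adjusted p = 0.000763, and 1.12 without the pair). TGFB2 had groups that did not overlap and was not called (log2 fold change -0.72, adjusted p = 0.0538, and -0.85 without the pair, adjusted p = 0.0854), and LTBP1, a binding protein of latent TGFb, at 4.85, 4.87 and 4.41 FPKM in EGFR-low and 2.84, 6.72 and 6.43 FPKM in EGFR-high, had groups that overlapped (-0.082 and 0.05). The most changed members belonged to the BMP and activin branches. ID4, an inhibitor of DNA binding that BMP signaling induces, stood at 7.99, 27.5 and 23.8 FPKM in EGFR-low and 0.0853, 0.0473 and 3.46 FPKM in EGFR-high and rose by 3.43 (4.64). NOG, the BMP antagonist noggin, stood at 4.84, 0.166 and 0.186 FPKM in EGFR-low and 15.7, 14.4 and 16.0 FPKM in EGFR-high and fell by 3.02 on the log2 scale (-3.77 without the pair). BMP4 (-2.72 and -3.34) and INHBA, the activin A subunit (-3.01 and -3.72), were lower too.

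Matrix genes moved both ways, with 6 of 21 tested called higher and 9 lower (median log2 fold change -0.39 with all 6 libraries and -0.45 without the intermediate pair). FN1, fibronectin, stood at 18.3, 24.7 and 25.8 FPKM in EGFR-low and 2.76, 3.08 and 11.5 FPKM in EGFR-high. The EGFR-low libraries were all higher, with the intermediate EGFR-high replicate 3 nearest to them (log2 fold change 2.04, SE 0.665, adjusted p = 0.0231, and 2.74 without the pair). The FN1 call was lost without EGFR-low replicate 2 (adjusted p = 0.0634), EGFR-low replicate 3 (adjusted p = 0.0666), EGFR-high replicate 1 (adjusted p = 0.0872) or EGFR-high replicate 2 (adjusted p = 0.0823). FBLN1, the matrix glycoprotein fibulin 1, stood at 13.4, 0.178 and 0.106 FPKM in EGFR-low and 63.9, 66.8 and 46.1 FPKM in EGFR-high, near 0 in EGFR-low replicates 2 and 3 (-4.48 and -5.86). SPP1, osteopontin (-4.00 and -5.18), SERPINE2, a protease inhibitor (-4.12 and -5.34), and MGP, matrix Gla protein (-3.87 and -4.92), were lower. Of 20 tested collagens and laminins, 1 was called higher, 11 lower and 8 neither (median log2 fold change -1.30 with all 6 libraries and -1.58 without the intermediate pair). LAMA4 and LAMB1, chains of basement membrane laminins, fell by 3.58 and 3.29 on the log2 scale and the collagen COL4A5 by 2.85, and all 3 fell further without the pair.

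Genes of mesenchymal state did not rise as a group: 3 of 16 tested were called higher and 7 lower (median log2 fold change -0.48 with all 6 libraries and -0.57 without the intermediate pair), and ZEB1, ZEB2, CDH2 and TWIST1 were under the filter on low values. SPARC, a matricellular protein, stood at 14.3, 20.1 and 17.8 FPKM in EGFR-low and 0.0622, 0.139 and 9.37 FPKM in EGFR-high and rose by 2.98 (4.18), with EGFR-high replicate 3 between the groups. S100A4 fell by 2.46 (log2 fold change -3.07 without the pair) and the adhesion protein L1CAM by 2.61 (-3.18). AXL, a receptor tyrosine kinase tied to mesenchymal state and to resistance to EGFR inhibitors, stood at 10.8, 0.314 and 0.191 FPKM in EGFR-low and 35.8, 62.6 and 36.2 FPKM in EGFR-high. The 2 EGFR-low libraries outside the pair were near 0, replicate 1 was at 10.8, and all EGFR-high libraries were higher (log2 fold change -4.07, SE 0.686, adjusted p = 0.000655, and -5.27 without the pair). Targets of YAP and TEAD, factors of the Hippo pathway, gave 5 called higher and 8 lower of 22 tested (median log2 fold change -0.29 with all 6 libraries and -0.74 without the intermediate pair). ANKRD1 (-3.62 and -4.63), AMOTL1 (-3.24 and -4.07) and the IGF binding protein IGFBP3 (-2.95 and -3.55) were lower. Of 18 tested contractile genes, 6 were called higher and 6 lower (median log2 fold change -0.25 with all 6 libraries and -0.26 without the intermediate pair), 66.7% in all against 51.8% of all tested genes. After median-of-ratios scaling 3 were higher and 7 lower. TPM1, a tropomyosin, fell by 1.68 (-1.98 without the pair), MYL9, a myosin light chain, rose by 2.12 (3.11), and FLNC, a filamin, fell by 1.41 (-1.69). ACTA2, smooth muscle actin, at 1.75, 3.41 and 2.69 FPKM in EGFR-low and 0.425, 1.04 and 2.46 FPKM in EGFR-high, had groups that overlapped (log2 fold change 0.72, adjusted p = 0.0464, and 1.24 without the pair, adjusted p = 0.000607). The ACTA2 call was lost without EGFR-low replicate 2 (adjusted p = 0.165), EGFR-low replicate 3 (adjusted p = 0.112), EGFR-high replicate 1 (adjusted p = 0.198) or EGFR-high replicate 2 (adjusted p = 0.115). Its log2 fold change was 0.42 without EGFR-high replicate 1. MYLK, the kinase of that light chain, was higher by 1.67 with overlapping groups (2.73 without the pair, adjusted p = 0.000129). The MYLK call was lost without EGFR-low replicate 2 (adjusted p = 0.0756), EGFR-low replicate 3 (adjusted p = 0.0623), EGFR-high replicate 1 (adjusted p = 0.0808) or EGFR-high replicate 2 (adjusted p = 0.0793).

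Of 21 tested receptor tyrosine kinases outside the ERBB family, AXL among them, 9 were called higher and 5 lower (median log2 fold change 0.28 with all 6 libraries and 0.47 without the intermediate pair). FGFR2, a receptor of fibroblast growth factors, stood at 3.25, 5.64 and 6.98 FPKM in EGFR-low and 0.0130, 0 and 1.12 FPKM in EGFR-high and rose by 2.24 (2.85). NTRK2, the receptor of BDNF, at 3.65, 4.27 and 2.76 FPKM in EGFR-low and 0.0231, 0.00259 and 1.18 FPKM in EGFR-high, rose by 1.79 (2.14), and KDR, a VEGF receptor, at 3.79, 3.58 and 3.57 FPKM in EGFR-low and 0.00320, 0.00297 and 0.881 FPKM in EGFR-high, rose by 1.91 (2.19). All 3 receptors were near 0 in EGFR-high replicates 1 and 2 and at about 1 FPKM in replicate 3. Of 15 tested BCL2 family genes, 4 were called higher and 4 lower (median log2 fold change 0.036 with all 6 libraries and 0.027 without the intermediate pair). The called share, 53.3%, was near the 51.8% of all tested genes. BCL2L11, which encodes the BH3-only death inducer BIM, stood at 8.81, 11.8 and 11.6 FPKM in EGFR-low and 4.08, 4.26 and 5.65 FPKM in EGFR-high. Its groups did not overlap (log2 fold change 1.05, SE 0.160, adjusted p = 0.000413, and 1.29 without the pair). BMF, another BH3-only gene, was at 17.5, 28.8 and 23.5 FPKM in EGFR-low and 2.77, 2.77 and 5.64 FPKM in EGFR-high, also without overlap (2.39 and 2.84). BCL2, the anti-apoptotic founder of the family, was low in both groups and fell by 1.05 (-1.25 without the pair). PMAIP1, the BH3-only gene NOXA, was higher by 1.00 (1.11), a call lost without EGFR-high replicate 1 (adjusted p = 0.0545).

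Cytokines and chemokines gave 7 called higher and 6 lower of 24 tested (median log2 fold change 0.31 with all 6 libraries and 0.22 without the intermediate pair), and 5 and 7 after median-of-ratios scaling. CXCL16, a membrane-bound chemokine, stood at 8.64, 3.64 and 3.97 FPKM in EGFR-low and 29.5, 29.96 and 21.9 FPKM in EGFR-high, with no overlap (-2.20 and -2.68). CCL28, an epithelial chemokine, rose by 2.01 (2.54). CCL2, which attracts monocytes, stood at 4.01, 1.64 and 2.82 FPKM in EGFR-low and 0, 0.0333 and 0.936 FPKM in EGFR-high and was higher in all 3 EGFR-low libraries (log2 fold change 1.55, adjusted p = 0.0178, and 1.64 without the pair, adjusted p = 0.0326). Its call was lost without EGFR-low replicate 1 (adjusted p = 0.0567), EGFR-high replicate 1 (adjusted p = 0.0651) or EGFR-high replicate 2 (adjusted p = 0.0634). CCL5, a T cell chemokine, at 2.32, 0.855 and 1.64 FPKM in EGFR-low and 0.0378, 0.0443 and 0.876 FPKM in EGFR-high, overlapped in EGFR-low replicate 2 and EGFR-high replicate 3 (log2 fold change 1.00, adjusted p = 0.0196, and 1.09 without the pair, adjusted p = 0.0153). Its call was lost without EGFR-low replicate 1 (adjusted p = 0.0681), EGFR-low replicate 3 (adjusted p = 0.0566), EGFR-high replicate 1 (adjusted p = 0.0755) or EGFR-high replicate 2 (adjusted p = 0.0756). CXCL8, listed as IL8, was at 51.9, 10.3 and 22.2 FPKM in EGFR-low and 5.66, 0.865 and 11.7 FPKM in EGFR-high, again with overlap (log2 fold change 2.15, adjusted p = 0.0447), and was not called without the pair (2.2, adjusted p = 0.0578) or without EGFR-low replicate 1 (adjusted p = 0.148), EGFR-low replicate 3 (adjusted p = 0.0923), EGFR-high replicate 1 (adjusted p = 0.0759) or EGFR-high replicate 2 (adjusted p = 0.189). The intermediate EGFR-low replicate 1 was the highest library for CCL2, CCL5 and CXCL8. GDF15, a stress-induced cytokine, was higher by 1.59 (1.51), a call lost without EGFR-low replicate 1 (adjusted p = 0.0725), EGFR-high replicate 1 (adjusted p = 0.0638) or EGFR-high replicate 2 (adjusted p = 0.0719). IL4 was listed at 0 in 5 libraries and at 0.0259 FPKM in EGFR-low replicate 1.

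Ligands of NK cells and immune checkpoints gave 12 called higher and 6 lower of 22 tested (median log2 fold change 0.56 with all 6 libraries and 0.70 without the intermediate pair). LGALS9, galectin 9, rose by 2.28 (2.90), and MICB, a stress ligand of the NK receptor NKG2D, stood at 3.37, 0.776 and 0.630 FPKM in EGFR-low and 14.8, 9.50 and 7.27 FPKM in EGFR-high and fell by 2.25 (-2.92 without the pair). CD58, the ligand of CD2, fell by 1.85 (-2.30), and VTCN1, the checkpoint ligand B7-H4, rose by 2.15 (3.08), a call lost without EGFR-high replicate 2 (adjusted p = 0.0528). Of 31 listed cancer-testis antigens, normally expressed in germ cells, 20 were under the filter. The 11 tested members were each called, 3 higher and 8 lower (median log2 fold change -3.87 with all 6 libraries and -5.03 without the intermediate pair). A member near 0 in 1 group could pass the filter through the other group alone. These counts and this median thus depend on the filter and do not describe the family. XAGE1B stood at 120.5, 154 and 163 FPKM in EGFR-low and 0.0485, 0.111 and 40.1 FPKM in EGFR-high and rose by 5.33 (7.21), and MAGEA3 stood at 36.1, 0.675 and 0.426 FPKM in EGFR-low and 166, 159.8 and 115 FPKM in EGFR-high and fell by 5.03 (log2 fold change -6.73 without the pair). The first was near 0 in EGFR-high replicates 1 and 2 and the second in EGFR-low replicates 2 and 3. XAGE1A to XAGE1E, MAGEA3 and MAGEA6, the CT45A genes and the VCX genes are near copies of each other. Each family is best read as 1 observation, and the split among its members is uncertain. The counts and the median of this list nevertheless take each tested copy singly. Matrix proteases and their inhibitors gave 10 higher and 13 lower of 29 (median log2 fold change -0.33 with all 6 libraries and -0.40 without the intermediate pair). TIMP3, an inhibitor of metalloproteases, at 46.2, 0.543 and 0.414 FPKM in EGFR-low and 160.5, 273 and 159 FPKM in EGFR-high (-5.36 and -7.15), and PI3, the elastase inhibitor elafin (-4.54 and -5.97), were lower. SERPINA1, antitrypsin, at 21.6, 69.6 and 86.0 FPKM in EGFR-low and 0.104, 0.112 and 11.8 FPKM in EGFR-high (4.37 and 6.14), and CTSS, cathepsin S (3.90 and 5.07), were higher, without overlap.

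Of 32 tested HDAC and corepressor genes, the vorinostat targets and their complexes, 8 were called higher and 8 lower (median log2 fold change -0.095 with all 6 libraries and -0.06 without the intermediate pair). The called share, 50%, was near the 51.8% of all tested genes. HDAC2, a class I histone deacetylase, stood at 73.8, 61.3 and 55.6 FPKM in EGFR-low and 101, 114 and 100.2 FPKM in EGFR-high and was lower in all 3 EGFR-low libraries (log2 fold change -0.73, SE 0.125, adjusted p = 0.00072, and -0.87 without the pair). HDAC1 (log2 fold change -0.20, adjusted p = 0.231, and -0.27 without the pair, adjusted p = 0.224) and HDAC4 (-0.13, adjusted p = 0.589, and -0.16 without the pair, adjusted p = 0.585) were not called. HDAC3 was higher by 0.29 (adjusted p = 0.0389, and 0.37 without the pair, adjusted p = 0.047). Its call was lost without EGFR-low replicate 2 (adjusted p = 0.181), EGFR-low replicate 3 (adjusted p = 0.0692), EGFR-high replicate 1 (adjusted p = 0.0939), EGFR-high replicate 2 (adjusted p = 0.0849) or EGFR-high replicate 3 (adjusted p = 0.0614). KDM1A, the histone demethylase LSD1, stood at 68.7, 41.2 and 38.1 FPKM in EGFR-low and 147, 148 and 129.6 FPKM in EGFR-high and fell by 1.55 (-1.87 without the pair). The class IIa deacetylase HDAC9 was higher by 1.20 (1.07, not called without the pair), a call also lost without EGFR-low replicate 1 (adjusted p = 0.0704) or EGFR-high replicate 2 (adjusted p = 0.0871). The NuRD helicase CHD3 was higher by 1.18 (1.49), a call lost without EGFR-low replicate 3 (adjusted p = 0.0542) or EGFR-high replicate 2 (adjusted p = 0.0577). Among proliferation genes, of 45 S phase genes 6 were called higher and 3 lower (median log2 fold change 0.083 with all 6 libraries and 0.18 without the intermediate pair), with 7 and 1 without the pair. Of 53 mitosis genes 4 were called higher and 6 lower (median log2 fold change -0.031 with all 6 libraries and -0.17 without the intermediate pair), with 3 and 10 without the pair and 3 and 10 after median-of-ratios scaling. CDC45, a helicase factor, rose by 0.94 (1.21), AURKB, a mitotic kinase, rose by 1.12 (1.24), and CCNA2, cyclin A2, fell by 1.33 (-1.72 without the pair). CDC25B, a phosphatase that activates cyclin-dependent kinases, rose by 0.96 (1.17). MCM6 of the replicative helicase was not called (log2 fold change 0.70, adjusted p = 0.0646) but was without EGFR-high replicate 3 (adjusted p = 0.026) and without the pair (1.03, adjusted p = 0.0298). The helicase subunit MCM2 was higher by 0.74 (0.99 without the pair, adjusted p = 0.0134). This call was lost without EGFR-low replicate 2 (adjusted p = 0.0802), EGFR-high replicate 1 (adjusted p = 0.0667) or EGFR-high replicate 2 (adjusted p = 0.0796). LIG1, DNA ligase 1, was lower (-1.04). The LIG1 call was lost without EGFR-low replicate 2 (adjusted p = 0.0848), EGFR-low replicate 3 (adjusted p = 0.128), EGFR-high replicate 1 (adjusted p = 0.0987), EGFR-high replicate 2 (adjusted p = 0.0672) or EGFR-high replicate 3 (adjusted p = 0.0669), and without the pair (-1.25, adjusted p = 0.0502). CDCA3, which helps mitotic entry, was lower (-0.98, and -1.25 without the pair, adjusted p = 0.0211) with overlapping groups. Its call was lost without EGFR-low replicate 2 (adjusted p = 0.0918), EGFR-low replicate 3 (adjusted p = 0.101), EGFR-high replicate 1 (adjusted p = 0.108) or EGFR-high replicate 3 (adjusted p = 0.0569).

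Cholesterol synthesis gave 3 higher and 2 lower of 25 (median log2 fold change -0.13 with all 6 libraries and -0.57 without the intermediate pair), and 2 and 4 without the pair. STARD4, a sterol carrier, stood at 15.6, 7.87 and 7.87 FPKM in EGFR-low and 0.0110, 0.00509 and 4.27 FPKM in EGFR-high and rose by 2.64 (3.14), and PMVK, a kinase of the mevalonate pathway, rose by 1.45 (1.80). TM7SF2, a sterol reductase, at 8.09, 4.86 and 4.45 FPKM in EGFR-low and 46.1, 13.8 and 10.1 FPKM in EGFR-high, fell by 1.58 (-2.22 without the pair and -0.95 without EGFR-high replicate 1). EGFR-high replicate 1 was also the highest library for the summed list, at 1604, 1010.0 and 896 FPKM in EGFR-low and 2572, 785 and 934 FPKM in EGFR-high.

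Fatty acid synthesis gave 1 higher and 5 lower of 18 (median log2 fold change 0.017 with all 6 libraries and -0.18 without the intermediate pair), with 1 and 7 without the pair. SCD5, a desaturase, fell by 1.25 (-1.38 without the pair), while the calls of FADS2 (-0.94, and -1.31 without the pair, adjusted p = 0.00582), another desaturase, and ACSL3 (-0.75, and -1.07 without the pair, adjusted p = 0.00737), an acyl-CoA synthetase, were lost when 1 library was left out. For FADS2 this held without EGFR-low replicate 2 (adjusted p = 0.0558), EGFR-low replicate 3 (adjusted p = 0.069) or EGFR-high replicate 1 (adjusted p = 0.0697), and for ACSL3 without EGFR-low replicate 2 (adjusted p = 0.0671), EGFR-low replicate 3 (adjusted p = 0.0679) or EGFR-high replicate 1 (adjusted p = 0.0775). MID1IP1, an activator of acetyl-CoA carboxylase, stood at 62.6, 65.5 and 77.8 FPKM in EGFR-low and 0.0625, 0.0403 and 18.5 FPKM in EGFR-high and rose by 4.64 (6.10). ATF4 targets, genes of amino acid supply and stress, gave 9 higher and 3 lower of 40 (median log2 fold change 0.28 with all 6 libraries and 0.14 without the intermediate pair). DDIT3, the stress factor CHOP, was at 70.1, 53.6 and 90.0 FPKM in EGFR-low and 11.5, 13.5 and 21.6 FPKM in EGFR-high (2.14 and 2.38), and SLC7A5, a transporter of large neutral amino acids, rose by 1.55 (1.83). WARS, the cytosolic tryptophan tRNA synthetase, was higher by 1.68 (2.30), a call lost without EGFR-low replicate 3 (adjusted p = 0.059) or EGFR-high replicate 1 (adjusted p = 0.0608). ATF3 was not called (log2 fold change 1.66, adjusted p = 0.0632, and 1.38 without the pair, adjusted p = 0.176) except without EGFR-low replicate 2 (adjusted p = 0.032). Hypoxia and glycolysis genes gave 7 higher and 4 lower of 33 (median log2 fold change -0.0033 with all 6 libraries and 0.08 without the intermediate pair), 10 and 4 without the pair and 5 and 5 after median-of-ratios scaling. BNIP3, a mitophagy receptor, rose by 2.07 (2.61), and ADM, adrenomedullin, fell by 2.29 (-2.66 without the pair). The glucose transporter SLC2A3 fell by 1.67 (-1.82 without the pair), and CA9, a carbonic anhydrase, was lower (-1.79, and -1.92 without the pair, adjusted p = 0.012). The CA9 call was lost without EGFR-low replicate 2 (adjusted p = 0.0868), EGFR-low replicate 3 (adjusted p = 0.0923) or EGFR-high replicate 3 (adjusted p = 0.0881).

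Nuclear genes of the respiratory chain gave 23 higher and 10 lower of 71 (median log2 fold change 0.20 with all 6 libraries and 0.28 without the intermediate pair), and 17 and 12 after median-of-ratios scaling. NDUFB11, a subunit of complex I, stood at 40.3, 51.7 and 50.1 FPKM in EGFR-low and 18.5, 17.2 and 24.2 FPKM in EGFR-high and rose by 1.21 (1.47); NDUFB1 (1.17 and 1.43), NDUFA13 (1.1 and 1.41) and NDUFS7 (1.03 and 1.27), of the same complex, did too. Of 13 mitochondrially encoded genes 1 was called higher and 0 lower (median log2 fold change -0.15 with all 6 libraries and -0.14 without the intermediate pair); it was MT-ND6 (1.38, and 1.54 without the pair, adjusted p = 0.0709), whose call was lost without EGFR-low replicate 1 (adjusted p = 0.0635), EGFR-low replicate 3 (adjusted p = 0.122) or EGFR-high replicate 2 (adjusted p = 0.155). Cytosolic ribosomal proteins gave 6 higher and 29 lower of 76 (median log2 fold change -0.26 with all 6 libraries and -0.24 without the intermediate pair), 5 and 43 after median-of-ratios scaling. RPS16 stood at 663, 466 and 442 FPKM in EGFR-low and 1213, 1300.4 and 1137 FPKM in EGFR-high, with no overlap (log2 fold change -1.24, SE 0.156, adjusted p = 0.000327, and -1.47 without the pair), and RPL13A (-1.22 and -1.44) and RPS19 (-1.22 and -1.40) fell by nearly as much.

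**Figure D4:**
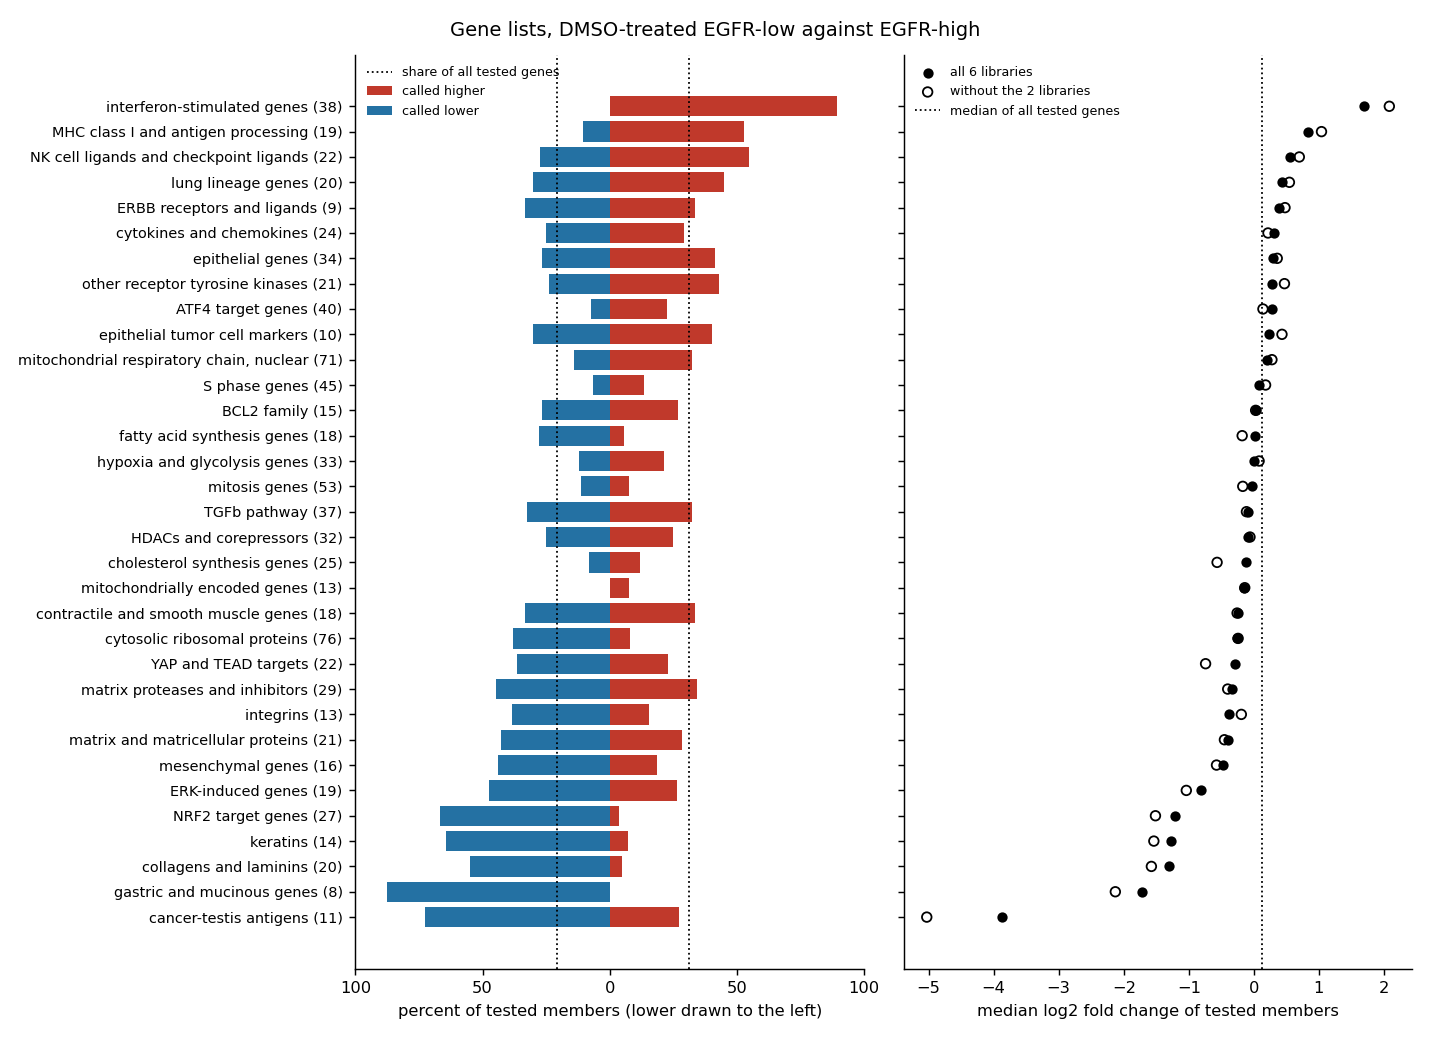
For each gene list, with its number of tested members in brackets, the left panel gives the percent of members called higher (red, to the right) and lower (blue, to the left) in EGFR-low DMSO cells, with dotted lines at the shares of all tested genes, 31.1% and 20.7%. The right panel gives the median log2 fold change with all 6 libraries (filled) and without the intermediate pair (open), with a dotted line at the median of all tested genes, 0.12. Interferon-stimulated genes stand at 1.70 and cancer-testis antigens at -3.87, the latter from the 11 of 31 listed members that passed the filter.

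Defining markers of other cell types were mostly at or near 0, apart from the leukocyte RNA described above. Of 12 fibroblast markers 1 passed the filter, COL1A1, which was not called (0.049, adjusted p = 0.904, and 0.17 without the pair), and COL3A1, DCN, LUM, PDGFRA, THY1, PDPN and DPT were listed at 0 in all 6 libraries. The summed fibroblast markers stood at 2.59, 2.71 and 1.49 FPKM in EGFR-low and 2.60, 1.02 and 3.42 FPKM in EGFR-high, most of it COL1A1. Of 12 leukocyte markers 3 passed the filter, 2 were called higher and 0 lower (median log2 fold change 0.82 with all 6 libraries and 0.99 without the intermediate pair). The summed leukocyte markers stood at 36.3, 25.4 and 17.1 FPKM in EGFR-low and 23.1, 35.1 and 32.9 FPKM in EGFR-high, with sums that overlapped and were carried mainly by CD68, a lysosomal protein that tumor cells also express. CD68 stood at 21.9, 21.7 and 14.5 FPKM in EGFR-low and 22.2, 34.6 and 27.5 FPKM in EGFR-high, without overlap, and was not called (log2 fold change -0.52, SE 0.228, adjusted p = 0.0777, and -0.62 without the pair, adjusted p = 0.109). It was called lower without EGFR-high replicate 1 (adjusted p = 0.0497) and after median-of-ratios scaling. CSF1R, the receptor of macrophage growth factors, was higher by 1.03 (1.27 without the pair, adjusted p = 0.015), a call lost without EGFR-high replicate 1 (adjusted p = 0.057) or EGFR-high replicate 2 (adjusted p = 0.0698). CD14 was higher by 0.82 (0.99 without the pair, adjusted p = 0.0243), a call lost without EGFR-low replicate 2 (adjusted p = 0.0936), EGFR-high replicate 1 (adjusted p = 0.075) or EGFR-high replicate 2 (adjusted p = 0.0858). Of 7 listed endothelial markers 2 passed the filter, 1 was called higher and 0 lower (median log2 fold change 1.00 with all 6 libraries and 1.06 without the intermediate pair). Their summed level was 8.27, 7.59 and 7.2 FPKM in EGFR-low and 4.91, 3.28 and 4.0 FPKM in EGFR-high, CDH5 was the most abundant and not called (0.096, adjusted p = 0.8, and -0.066 without the pair), the called gene was KDR, and TEK and EMCN were listed at 0. The part of such cells in the differences was not tested beyond these values.

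The genes with the largest fold changes were far apart in the 4 libraries outside the intermediate pair. Of the 12 largest rises with no overlap, 3 were described above (IFITM1, IFITM2 and UBE2M), 5 were XAGE1 copies, from 5.27 for XAGE1A to 5.36 for XAGE1C, with 5.31 for XAGE1D, and 2 were CT45A copies, CT45A4 (5.02 and 6.75) and CT45A2 (4.90 and 6.57). The others were MT1E, a metal-binding metallothionein, at 166, 193 and 155 FPKM in EGFR-low and 0.273, 0.252 and 59.9 FPKM in EGFR-high (5.22 and 7.11), and BASP1, a membrane-bound signaling protein of neurons, at 85.1, 142 and 122 FPKM in EGFR-low and 0.154, 0.203 and 41.4 FPKM in EGFR-high (4.88 and 6.81). In each of these the EGFR-high level came almost wholly from the intermediate replicate 3. The largest fall was that of UCHL1, a ubiquitin hydrolase of neurons and neuroendocrine cells, at 124, 1.04 and 0.832 FPKM in EGFR-low and 467, 635 and 419 FPKM in EGFR-high. EGFR-low replicates 2 and 3 were near 1 FPKM, and replicate 1 lay between them and the EGFR-high libraries (log2 fold change -6.01, SE 1.20, adjusted p = 0.00165, and -8.14 without the pair, and -8.01 without EGFR-low replicate 1 alone). LCN2, lipocalin 2, an epithelial defense protein, stood at 119, 1.59 and 1.59 FPKM in EGFR-low and 388, 619 and 403 FPKM in EGFR-high (-5.63 and -7.57). MAL, a proteolipid of apical transport, stood at 40.2, 0.361 and 0.608 FPKM in EGFR-low and 166, 279.6 and 145 FPKM in EGFR-high (-5.40 and -7.19), and ANO1, a calcium-activated chloride channel, at 60.3, 0.644 and 0.994 FPKM in EGFR-low and 194, 304 and 208 FPKM in EGFR-high (-5.30 and -7.07). UGT1A6, a glucuronosyl transferase (-5.25 and -7.00), SULF2, an extracellular sulfatase (-5.08 and -6.78), and the copies VCX3B (-5.29 and -7.05) and VCX3A (-5.13 and -6.83) completed the list with TIMP3, AKR1C2, AKR1C3 and CEACAM6.

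The same contrast in untreated cells was smaller and partly opposite; the 2 experiments were fitted separately, and no difference between them was tested. Untreated, 431 of 11305 tested genes (3.81%) were called, and the median absolute log2 fold change was 0.25, against 0.47 in DMSO (0.56 without the pair). Of 11118 genes tested in both experiments, 389 were called untreated and 5465 in DMSO, and 293 in both, which is 75.3% of the untreated calls and 5.36% of the DMSO calls. Of the 293, 192 had the same direction, 55 higher and 137 lower, and 101 the opposite, 48 of them higher in DMSO. Among shared losses, OLFML3, a secreted olfactomedin-like protein, stood at 13.4, 0.0131 and 0.0125 FPKM in EGFR-low and 43.9, 78.5 and 43.1 FPKM in EGFR-high in DMSO (-4.46 and -5.88) and changed by -6.99 untreated. MGP changed by -3.87 in DMSO and -5.49 untreated, CASP14, a caspase of keratinocytes, by -4.72 and -3.94, and KRT13 by -4.39 and -3.35. Shared rises included FN1 (2.04 in DMSO, 2.78 untreated), the surface antigen STEAP1 (3.46, 1.89), the guidance factor SEMA3A (4.19, 1.09) and the integrin ligand EDIL3 (3.53, 1.53).

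Genes that marked untreated EGFR-low cells did so in DMSO only in part. CBS, which makes cystathionine from homocysteine, stood at 37.5, 35.8 and 44.2 FPKM in EGFR-low and 16.7, 29.5 and 26.5 FPKM in EGFR-high and was not called (log2 fold change 0.70, adjusted p = 0.113, and 0.81 without the pair, adjusted p = 0.171), while untreated it was lower (-3.41). GABBR2, a GABA receptor chain, was lower in both (-1.47 in DMSO, -1.83 without the pair, -3.43 untreated). MAP2, a microtubule-associated protein of neurons, stood at 0.369, 0.101 and 0.327 FPKM in EGFR-low and 1.45, 1.73 and 1.12 FPKM in EGFR-high and was lower in DMSO (log2 fold change -0.94, adjusted p = 0.0163, and -1.10 without the pair, adjusted p = 0.029), while untreated it was higher (2.68). The MAP2 call in DMSO was lost without EGFR-low replicate 2 (adjusted p = 0.0611) or EGFR-high replicate 2 (adjusted p = 0.0592). ANXA10, an annexin of gastric epithelium, and SLC6A14, an amino acid transporter, were under the filter in DMSO, with no library above 0.113 and 0.112 FPKM. For both, all EGFR-low libraries were below all EGFR-high libraries, where the exact two-sided permutation test of 3 against 3 gives its smallest p, 0.1. ALDH3A1, CEACAM6, SPP1 and AKR1B10, an aldo-keto reductase, fell in DMSO and rose untreated.

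**Figure D5:**
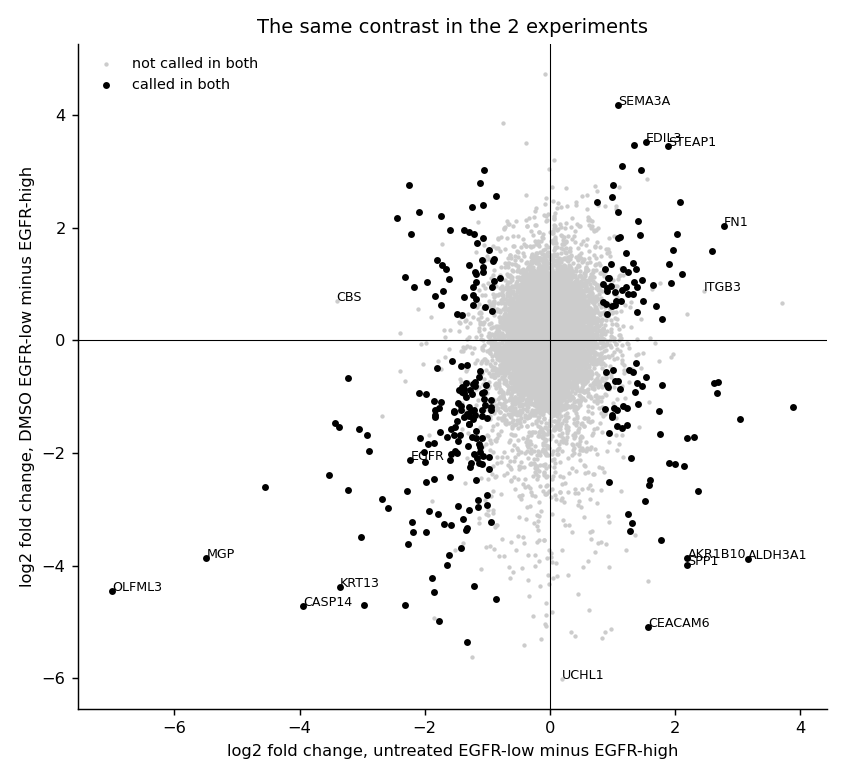
Each point is a gene tested in both experiments, with its log2 fold change, EGFR-low minus EGFR-high, untreated (horizontal axis) and in DMSO (vertical axis), black where called in both. Of 293 black points, 192 lie in the quadrants of equal direction and 101 in the others, among them ALDH3A1, CEACAM6, SPP1 and AKR1B10; EGFR lies at -2.23 untreated and -2.13 in DMSO.

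The contrast in DMSO was also set against the same contrast in vorinostat. In limma, 0 of 12236 genes (0%) had a difference between EGFR-low and EGFR-high that changed with vorinostat, and the smallest adjusted p was 0.999. An unadjusted p under 0.05 was found for 215 genes, a smaller share than the 0.05 that no change at all would give. Why that share was so small was not tested. EGFR changed by -2.13 in DMSO and -3.09 in vorinostat, NKX2-1 by 3.98 and 4.97, IFITM3 by 3.86 and 4.71, and UCHL1 by -6.01 and -7.51. The count was 0 without the intermediate pair as well, and a p that misses the threshold does not show that the drug left the contrast as it was. The vorinostat libraries of EGFR-low correlated across genes with EGFR-low DMSO replicates 2 and 3 at 0.973 to 0.997, and those of EGFR-high with EGFR-high DMSO replicates 1 and 2 at 0.954 to 0.990. With vorinostat replicates 2 and 3 alone the ranges were 0.994 to 0.997 and 0.982 to 0.990. Vorinostat replicate 1 of both populations stood apart, at -23.15 (EGFR-low) and -47.53 (EGFR-high) on the second principal component. The other vorinostat libraries lay at 3.97 to 13.13 on that component.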

How the data were processed

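Libraries were grouped as the labels give them. The deposited values are FPKM, a unit inferred from decimals, library sums and the naming of Cufflinks; the labels name STAR 2.5.1b, Cufflinks 2.2.1 and DESeq2 1.10.1 without their roles, and genome build hg19. The annotation and the depth per library are not given, so the precision that depth allows is unknown. Of 20111 listed genes, 12236 reached 1 FPKM in 3 or more of the 12 DMSO and vorinostat libraries and were tested as log2(FPKM + 1) with limma 3.58.1 in R 4.3.3, with 1 mean per group, a mean-variance trend over the 12 libraries and Benjamini-Hochberg adjustment over all tested genes, called under 0.05. The contrasts were EGFR-low minus EGFR-high in DMSO, and the same in DMSO minus that in vorinostat. The 9 untreated libraries (11305 tested genes) were fitted separately in the same way. Genes under the filter that the study reports were given a two-sided exact test by permutation.

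Genes were named by rule: EGFR; the 12 largest and 12 smallest fold changes among called genes whose groups do not overlap; genes the study reports for PC-9; up to 4 most changed members of each of 36 gene lists, which include markers of 4 cell types; called genes of the difference with vorinostat, of which there were none; and up to 4 genes of each direction, and 4 of opposite direction, called in both experiments. Of the genes that this rule names, 4 are not reported here. Members and lists were chosen with earlier results of these data known. Lists are described by counts and medians with no test of the list. Alternatives covered the pseudocount, the filter, 2 scalings, the GC and length trend (known for 12152 tested genes), the libraries fitted together, library weights, a replicate block and leaving libraries out, 2 of which were added after seeing the data. The code was tested on simulated data. Promoter sequences are from RefSeq, build GRCh38.p14, and gene positions were otherwise not used because the builds differ. Levels and tables were handled in Python 3.11.15.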

Additional observations from a re-analysis of the deposited data

Results flagged for a closer look

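Among genes called in both the untreated and the DMSO comparison, 4 stood out because all EGFR-low libraries moved one way in DMSO and the opposite way without treatment; whether the effects differ between the experiments was not tested. ALDH3A1 changed by -3.89 on the log2 scale in DMSO and by 3.16 untreated. CEACAM6 changed by -5.10 in DMSO and 1.57 untreated, SPP1 by -4.00 and 2.19, and AKR1B10 by -3.87 and 2.2. In DMSO, EGFR-low replicate 1 lay between the other libraries of the 2 groups for all 4. They were named by their gap between the 2 experiments, out of 101 genes called in opposite directions.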

How the results depend on the processing

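The count of genes called in DMSO, 6334 of 12236 tested, lay between 5005 and 8172 under the planned settings that keep all 12 libraries or the 6 DMSO libraries alone. The lowest, 5005, was of 9751 genes with at least 5 FPKM in 3 libraries, and with no filter the count was 6979 of 17906. When 1 DMSO library was left out the count lay between 4925 and 6194 of 12236. Under the last kind of setting the group with 2 libraries is assumed to vary like the others. With a replicate block it was 6789, and 6981 with the block and the GC and length trend removed. No pairing was used, because the labels do not say that a replicate number is shared between groups. Deviations of same-numbered EGFR-low and EGFR-high libraries from their group means correlated at 0.251, -0.207 and 0.285. EGFR-low replicate 1 with EGFR-high replicate 3 stood at -0.355, and EGFR-low replicate 2 with EGFR-high replicate 3 at 0.335. Deviations within a group of 3 are tied to each other, so these values cannot decide whether numbers are pairs. Leaving out both vorinostat replicate 1 libraries, a choice made after seeing the data, gave 7546, and leaving out the intermediate pair as well gave 7740. The count of genes whose contrast changed with vorinostat was 0 throughout, also in each fit without 1 library (lowest 0, highest 0), except that it was 1 with no filter on low values, where more genes were tested.

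Of 180 named genes, 139 kept their direction and their side of the threshold in every setting, 28 lost their call in at least 1 setting, 8 gained one and 5 changed sign, none of them called; the cause was not tested. Without 1 library, LTBP1 ran from -0.41 to 0.10, COL1A1 from -0.25 to 0.24, CDH5 from -0.002 to 0.26, MT-ATP6 from -6.18 to 0.26 and MT-CO3 from -5.94 to 0.53. Without the intermediate pair LTBP1 stood at 0.05, CDH5 at -0.07, MT-ATP6 at 0.18 and MT-CO3 at 0.47. Median-of-ratios scaling gave -0.04 for COL1A1 and -0.01 for CDH5, and quantile normalization -0.07 and -0.03.

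Limits: the values are FPKM with unknown depth, so no counting error can be given. Each group has 3 libraries, 1 of which lies between the groups. These libraries stand for 1 cell line, although the study also sorted DFCI-284 and H1975. Treatment, time and experiment differ together between DMSO and untreated cells and cannot be told apart. Near-identical gene copies and genes listed at 0 have uncertain levels.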
